A study of Saccharomyces cerevisiae with 103 samples.

Results

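The genes with which budding yeast uses acetate and other short carbon sources were followed by name through the RNA count, poly(A) tag count and poly(A) tail tables. They are ACS1 (YAL054C), ADY2 (YCR010C), JEN1 (YKL217W), ICL1 (YER065C), MLS1 (YNL117W), CIT2 (YCR005C), MDH2 (YOL126C), PCK1 (YKR097W), FBP1 (YLR377C) and IDP2 (YLR174W), or 10 of the 6692 genes in the tables. The cells were the SK1 strain of Saccharomyces cerevisiae, which sporulates quickly, and 103 libraries in 5 experiments were used. In the time course, wild-type cells grown in rich medium (YPD) and then in premeiotic BYTA medium were sampled at 0 to 9 h in sporulation medium (SPO), each hour with 2 libraries. In the return to growth, wild-type cells were put back into YPD after 1 h or 7 h in SPO and sampled before transfer and at 5 and 20 min, with 2 libraries each. In the mutant experiment, wild type and strains with both copies of CCR4, of POP2 or of XRN1 deleted were each sampled 3 times, with 1 library per sample: as vegetative cells in YPD, as premeiotic cells and 5 h into SPO. An Xrn1 degron strain was sampled in YPD before and 30 min after 500 µM auxin with 50 µM CuSO4, and a strain with CCR4 behind the CUP1 promoter before and 60 min after 50 µM CuSO4, each beside a wild-type control and with 1 library each.

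Yeast growing on glucose has little need of these enzymes and represses their genes. On acetate, Ady2 brings acetate into the cell, Jen1 brings in lactate and pyruvate, and Acs1 turns acetate into acetyl-CoA. The glyoxylate cycle (Icl1, Mls1, the peroxisomal citrate synthase Cit2 and the cytosolic malate dehydrogenase Mdh2) then makes C4 acids from acetyl-CoA, and Pck1 and Fbp1 carry out the steps of gluconeogenesis that glycolysis cannot run backwards. Idp2 is the cytosolic NADP-dependent isocitrate dehydrogenase. Glucose both represses transcription of such genes through Snf1, Mig1, Cat8 and Adr1 and, in budding yeast, speeds up the decay of some of their mRNAs.

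An RNA library held between 364038 and 3821895 counts in the hourly series, between 132594 and 4689131 in the transfers to YPD (the shallowest being replicate 2 before transfer at 7 h) and between 178152 and 1596718 in the mutants. Levels below are CPM, counts scaled by TMM to a common library size within each experiment, and are shares of a library: fewer cells that express a gene and less RNA per cell cannot be told apart. Because the RNA was ligated at its 3' end before fragmentation, levels of different genes are not compared. The stage markers matched the labels in wild type: SPS4, a gene of middle sporulation, stood at 22.5 CPM in vegetative growth and 21657 CPM at 5 h in SPO. The deletions matched too, with CCR4 at 0.00 to 1.80 CPM, POP2 at 0.00 CPM and XRN1 at 1.76 to 4.32 CPM in the 3 libraries of their strains.

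The promoters are shown because 8 of the 10 share a match to the core of the carbon source response element, which Cat8 and Sip4 bind. The letters CGG, then 6 bases of any kind, then GG, searched on both strands in the 500 bases before each start codon of the R64 (sacCer3) genome, were found in all but JEN1 and CIT2, and in 20.8% of all 6000 promoters. For each of the 8 the match nearest the start codon is printed with its surroundings, on the coding strand of the gene, with capitals for the match or its reverse complement. The stretches are chrI:45208-45268 (ACS1), chrIII:133422-133482 (ADY2), chrV:287277-287337 (ICL1), chrXIV:405892-405952 (MLS1), chrXV:83262-83322 (MDH2), chrXI:630765-630825 (PCK1), chrXII:875189-875249 (FBP1) and chrXII:504263-504323 (IDP2). MLS1, PCK1 and IDP2 lie on the plus strand and the other 5 on the minus strand.
ACS1: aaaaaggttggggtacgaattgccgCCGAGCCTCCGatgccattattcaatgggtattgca
ADY2: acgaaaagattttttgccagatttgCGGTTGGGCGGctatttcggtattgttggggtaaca
ICL1: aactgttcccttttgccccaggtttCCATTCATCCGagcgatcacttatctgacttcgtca
MLS1: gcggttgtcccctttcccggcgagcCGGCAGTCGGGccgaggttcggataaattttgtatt
MDH2: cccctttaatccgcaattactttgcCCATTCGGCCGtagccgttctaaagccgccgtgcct
PCK1: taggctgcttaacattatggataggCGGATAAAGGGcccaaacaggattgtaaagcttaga
FBP1: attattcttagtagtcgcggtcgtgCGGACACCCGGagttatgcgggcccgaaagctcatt
IDP2: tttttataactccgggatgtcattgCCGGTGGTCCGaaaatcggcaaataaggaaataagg
These matches begin between 221 bases (ACS1) and 441 bases (MLS1) before the start codon. CCAAT, the letters bound by the Hap complex, was in all 10 promoters and in 62.4% of all promoters, and CCCCNC, a core bound by Mig1, was in those of ACS1, JEN1, FBP1 and IDP2 and in 23.1% of all. A match is a description of the letters and not a bound site.

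Each of the 10 genes is a single coding exon that no other annotated gene overlaps in R64. The transporters are JEN1 (chromosome XI, 22234 to 24084, plus strand) and ADY2 (III, 132273 to 133124, minus), and ACS1 lies at I, 42881 to 45022 (minus). Of the glyoxylate cycle, ICL1 lies at V, 285241 to 286914 (minus), MLS1 at XIV, 406358 to 408022 (plus), CIT2 at III, 120946 to 122328 (minus) and MDH2 at XV, 81787 to 82920 (minus). PCK1 lies at XI, 631152 to 632801 (plus), FBP1 at XII, 873746 to 874792 (minus) and IDP2 at XII, 504591 to 505829 (plus). MLS1 and DAL7, and CIT2 and CIT1, are paralogous pairs, and no source used here says how reads common to such a pair were counted.

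In the time course the genes for taking up and activating acetate rose in the first hour, while the lactate carrier fell. ADY2 stood at 3721 and 3562 CPM at 0 h and at 19406 and 21367 CPM at 1 h, a log2 rise of 2.49 ± 0.14 (SE; edgeR, adjusted p = 1.79e-13). It was highest at 6 h (27973 and 27781 CPM) and 7 h (24216 and 31102 CPM), and was at 12753 and 15828 CPM at 9 h, above both libraries at 0 h. ACS1 rose from 6206 and 5332 CPM to 15067 and 15211 CPM at 1 h (log2 1.39 ± 0.12, adjusted p = 1.93e-11) and then fell to 9201 and 8051 CPM at 5 h and 2062 and 2355 CPM at 9 h. The ACS1 libraries at 9 h lay below those at 0 h. JEN1 went from 4064 and 3952 CPM at 0 h to 1866 and 2028 CPM at 1 h (log2 -1.04 ± 0.13, adjusted p = 4.03e-08) and was at 341 and 353 CPM at 9 h, with no overlap between these hours.

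The 4 genes of the glyoxylate cycle rose in the first hour and all fell between 1 h and 5 h. CIT2 stood at 3632 and 3566 CPM at 0 h, 7824 and 8684 CPM at 1 h, 4679 and 4196 CPM at 5 h and 1748 and 1857 CPM at 9 h. MLS1 stood at 2881 and 2621, then 5435 and 6260, then 2810 and 2927, then 976 and 1248 CPM at the same hours. MDH2 stood at 2157 and 1795, then 4350 and 4392, then 2870 and 2807, then 747 and 926 CPM. These 3 genes share the order 1 h above 5 h above 9 h, with replicates that do not overlap between those hours, and each step passed the test. ICL1 differed: from 5863 and 6285 CPM at 1 h it reached 1469 and 1600 CPM at 4 h, the lowest hour, and stood at 2972 and 3070 CPM at 6 h and 2127 and 2765 CPM at 9 h. Its rise from 5 h (1738 and 2009 CPM) to 9 h (log2 0.39 ± 0.15, adjusted p = 0.0258) was lost without replicate 1 at 5 h (adjusted p = 0.0889), without replicate 2 at 9 h (0.402) and with library sizes alone as scaling (0.190).

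The gluconeogenic pair fell steeply in the first hour, and PCK1 came back while FBP1 did not. PCK1, phosphoenolpyruvate carboxykinase, went from 7397 and 7188 CPM at 0 h to 531 and 493 CPM at 1 h (log2 -3.83 ± 0.16, adjusted p = 1.56e-17). It was lowest at 2 h (341 and 386 CPM), passed 938 and 952 CPM at 4 h and 1718 and 1977 CPM at 5 h, and stayed between 3136 and 3873 CPM from 6 h to 9 h. The rises from 1 h to 5 h (log2 1.85 ± 0.15) and from 5 h to 9 h (0.79 ± 0.14) both passed the test. FBP1, fructose-1,6-bisphosphatase, went from 1000 and 1004 CPM at 0 h to 232 and 206 CPM at 1 h (log2 -2.20 ± 0.11, adjusted p = 3.08e-16) and 62.0 and 63.5 CPM at 5 h. From 3 h on its libraries lay between 51.9 and 81.3 CPM, and its change from 5 h to 9 h did not pass (log2 0.23 ± 0.18). IDP2 stood at 1017 and 1009 CPM at 0 h, 1322 and 1501 CPM at 1 h and 541 and 499 CPM at 5 h, and lay between 339 and 467 CPM from 6 h on. Its rise in the first hour (log2 0.48 ± 0.13, adjusted p = 0.00178) was lost without replicate 2 at 1 h (log2 0.37, adjusted p = 0.0522).

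**Figure D1:**
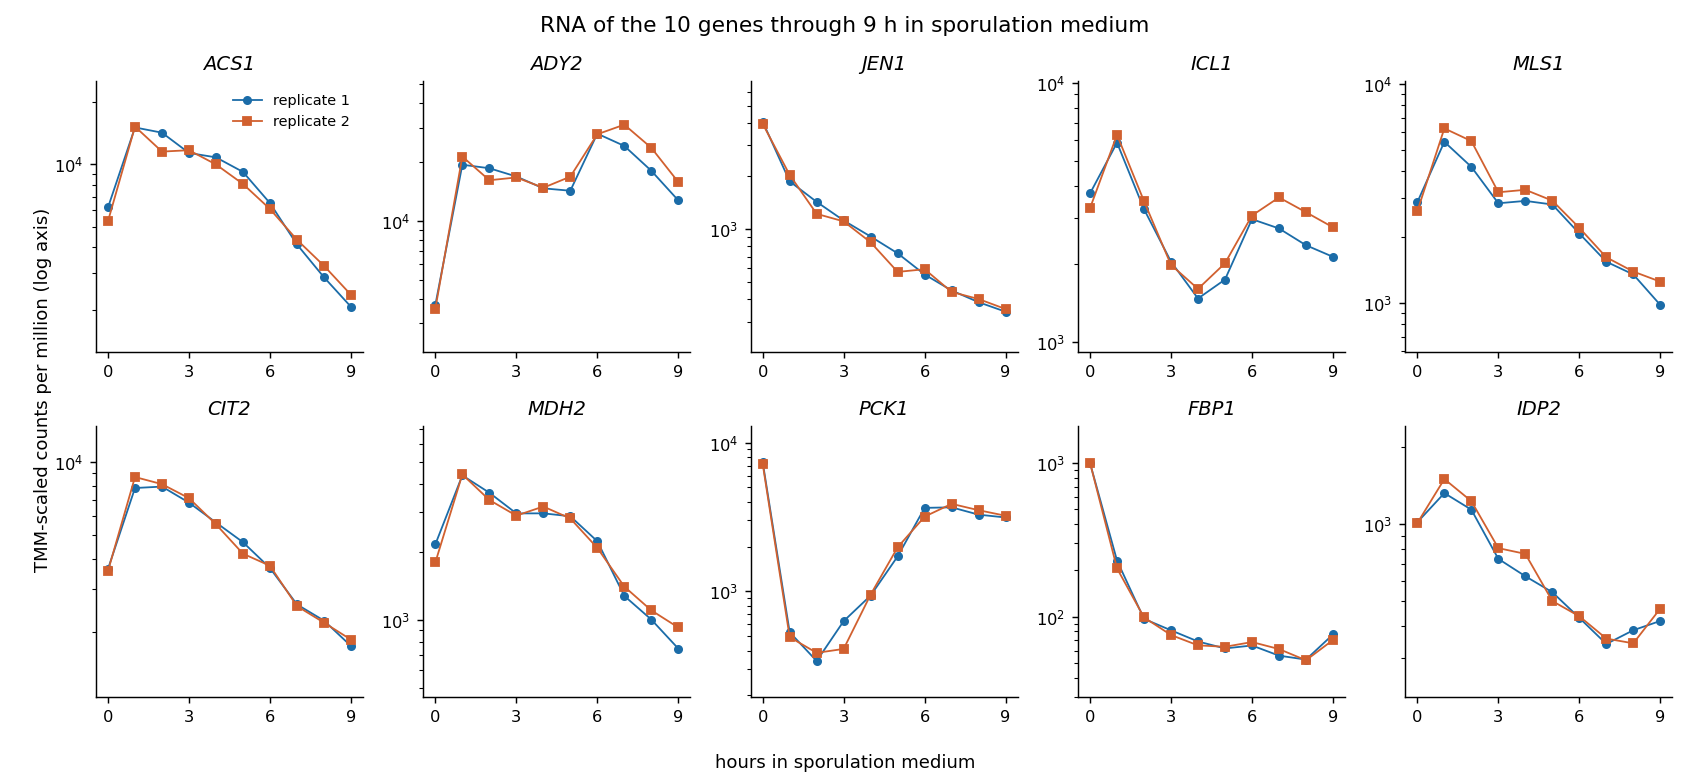
RNA level of each of the 10 genes (TMM-scaled CPM, log axis) at each hour in SPO, with 1 line per replicate. ADY2 stays high to 9 h (12753 and 15828 CPM), PCK1 dips to 341 and 386 CPM at 2 h and returns, and FBP1 does not return.

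By edgeR's quasi-likelihood test over 6269 genes, 7 of the 10 rose and 3 fell from 0 h to 1 h, where 28.3% of all genes tested rose and 29.2% fell. From 1 h to 5 h 1 rose and 9 fell, against 28.2% and 27.6% of all genes. From 5 h to 9 h 2 rose (24.5% of all genes) and 5 fell (26.1%), and from 0 h to 9 h 1 rose, ADY2 (28.5%), and 9 fell (34.2%). All 10 changed over the course, as did 95% of all genes. The fall of ADY2 from 1 h to 5 h (log2 -0.39, adjusted p = 0.0138) was lost without replicate 2 at 1 h (adjusted p = 0.110) or replicate 1 at 5 h (0.0731), and that of ICL1 from 0 h to 9 h (log2 -0.51) without replicate 1 at 9 h (0.0940). The labels do not say whether replicates were separate cultures, so the p-values may measure technical spread.

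Of 20 enzymes that work beside these genes, 13 rose and 1 fell in the first hour (28.3% and 29.2% of all genes). CIT3, a mitochondrial citrate and methylcitrate synthase, rose by 1.85 log2 units and PYC1, a pyruvate carboxylase, by 1.76, while ALD6, the cytosolic aldehyde dehydrogenase that makes acetate, fell by 3.75. From 1 h to 5 h 1 of the 20 rose and 15 fell (28.2% and 27.6%), led by IDP3 (log2 -2.87), ADH2 (-2.27) and SFC1 (-2.19). Of 10 regulators of these genes 3 rose and 3 fell in the first hour, near the shares of all genes. SIP4, an activator that binds the element shown above, rose by 3.13, while MIG1, the glucose repressor gene, fell by 0.74. CAT8, the activator gene upstream of SIP4, rose by 0.42, and ADR1 did not pass (log2 -0.06).

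The tag libraries, made from poly(A)-selected RNA, gave another measure of level. From 0 h to 1 h 5 of the 10 rose and 2 fell in tags (11.2% and 14.4% of 3955 genes), PCK1 by 5.05 and FBP1 by 2.97 log2 units. Without replicate 2 at 1 h only 4 of the 10 passed, and FBP1 (adjusted p = 0.0542), MLS1 (0.126) and MDH2 (0.0672) were the calls lost. From 1 h to 5 h PCK1 rose in both measures, by 1.86 in tags and 1.85 in RNA. ACS1 went the other way in the 2 measures: its tags rose from 45896 and 32148 to 105683 and 60634 CPM (log2 1.02 ± 0.35, adjusted p = 0.0272) while its RNA fell by 0.81 log2 units. The tag replicates of ACS1 are far apart at 5 h, and its rise was lost without replicate 2 at 1 h (adjusted p = 0.225) or replicate 1 at 5 h (0.378). Over this step 2 of the 10 rose (13.3% of all genes) and 4 fell (10.5%) in tags, or 3 in all without replicate 2 at 1 h. From 5 h to 9 h 5 fell (6.78%) and 0 rose (7.66%), and between 1 and 3 passed without replicate 1 or 2 at 5 h or replicate 1 or 2 at 9 h.

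Over the 10 hourly means, the genes outside the 10 whose profile was most like the mean profile of the 10 were MAL12 (Pearson r = 0.980), NMA1 (0.978), CPR5 (0.977), YJL218W (0.976) and FAD1 (0.975), among 6082 genes ranked. The 10 genes do not share 1 course: between pairs of them r ran from -0.843 (PCK1 and CIT2) to 0.992 (MDH2 and ACS1). The mean profile is thus an average of unlike courses. The 10 points share their libraries, and the values are a description.

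Return to rich medium from 1 h in SPO lowered the RNA of all 10 genes within 5 min and, for all but PCK1, to under 50 CPM within 20 min. ACS1 stood at 16555 and 14069 CPM before transfer, 2831 and 2550 CPM at 5 min and 23.3 and 24.97 CPM at 20 min. ADY2 stood at 14701 and 12404, then 2413 and 2189, then 26.2 and 26.7 CPM. JEN1 stood at 1640 and 1511, then 143 and 138, then 11.95 and 21.8 CPM. The replicates of these 3 genes do not overlap between any of the times. Their log2 changes at 20 min were -9.29 ± 0.25 (adjusted p = 1.34e-36), -8.99 ± 0.26 (2.19e-35) and -6.44 ± 0.20 (1.06e-34).

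Of the glyoxylate cycle, CIT2 fell furthest in 5 min. It stood at 8656 and 6654 CPM before transfer, 246 and 235 CPM at 5 min and 47.2 and 43.0 CPM at 20 min. Its change in the first 5 min (log2 -4.97 ± 0.20, adjusted p = 6.12e-29) was the largest of the 10. MDH2 stood at 3949 and 3329, then 1098 and 984, then 19.9 and 21.2 CPM. MLS1 stood at 5970 and 3948, then 1203 and 1125, then 39.8 and 35.3 CPM. ICL1 stood at 4137 and 2460, then 1145 and 625, then 42.1 and 46.2 CPM, with replicates that lie far apart before transfer and at 5 min but do not overlap between times. At 20 min the log2 changes were -7.41 for CIT2, -7.45 for MDH2, -7.06 for MLS1 and -6.21 ± 0.30 for ICL1.

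The gluconeogenic genes and IDP2 fell less. PCK1 stood at 570 and 560 CPM before transfer, 344 and 289 CPM at 5 min and 82.0 and 83.8 CPM at 20 min (log2 -0.82 ± 0.16 at 5 min and -2.77 ± 0.18 at 20 min). FBP1 stood at 224 and 272, then 67.3 and 80.3, then 15.4 and 13.5 CPM (log2 -4.11 ± 0.19 at 20 min). IDP2 stood at 1149 and 1096, then 384 and 422, then 31.3 and 27.3 CPM (log2 -5.28 ± 0.18 at 20 min). The change of PCK1 was the smallest of the 10 at both times. All 10 fell and 0 rose at 5 min, where 46.7% of 6109 genes fell, 27.4% rose and the median gene changed by -0.43. The same held at 20 min, where 42.8% fell and 38.4% rose. The median over the 10 at 20 min was -6.75, against -0.10 over all genes, and all 10 fell again between 5 and 20 min (27.0% of all genes fell and 41.2% rose), a comparison added after seeing the data.

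From 7 h in SPO the same transfer gave a different course, in which RNA fell at 5 min for 6 genes and no further fall passed the test from 5 to 20 min. ACS1 stood at 3530 and 3502 CPM before transfer, 302 and 306 CPM at 5 min and 832 and 733 CPM at 20 min. It fell by 3.55 ± 0.19 log2 units in 5 min (adjusted p = 3.47e-22) and rose again by 1.38 ± 0.18 (1.53e-08) from 5 to 20 min. ADY2 stood at 21654 and 21216, then 13660 and 13941, then 19454 and 19437 CPM. It too fell at 5 min (log2 -0.66) and rose by 0.51 ± 0.18 (adjusted p = 0.0247) from 5 to 20 min, a rise lost without replicate 1 at 5 min (0.137) or at 20 min (0.162), replicate 2 at 5 min (0.112) or at 20 min (0.115), or with library sizes alone (0.0758). JEN1 stood at 443 and 381, then 115 and 94.0, then 133 and 130 CPM, and its libraries at both later times lay below those before transfer.

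CIT2 stood at 1662 and 1918 CPM before transfer at 7 h, 543 and 363 CPM at 5 min and 371 and 308 CPM at 20 min, where it was lowest (log2 -2.37 ± 0.19). MDH2 stood at 944 and 1066, then 387 and 279, then 458 and 339 CPM. These 2 genes fell and stayed low, whereas the other genes of the glyoxylate cycle did not pass the test at either time. ICL1 stood at 2482 and 2329, then 1620 and 1695, then 2139 and 2021 CPM (log2 -0.22 ± 0.24 at 20 min). MLS1 stood at 1047 and 1385, then 1186 and 768, then 943 and 663 CPM, with overlap between neighbouring times but not between the first and the last.

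PCK1 stood at 3194 and 3426 CPM before transfer at 7 h, 2751 and 2736 CPM at 5 min and 3503 and 3436 CPM at 20 min (log2 0.06 ± 0.16). FBP1 stood at 52.7 and 45.7, then 38.7 and 38.0, then 71.5 and 54.4 CPM (log2 0.36 ± 0.27 at 20 min). IDP2 stood at 227 and 206, then 142 and 133, then 206 and 153 CPM. Of these 3, IDP2 fell at 5 min (log2 -0.71, adjusted p = 0.00151), a call lost without replicate 1 before transfer (adjusted p = 0.164), and none passed at 20 min. In all, 6 of the 10 fell at 5 min (23.2% of all genes fell and 26.3% rose) and 4 at 20 min (11.3% and 17.9%): ACS1, CIT2, JEN1 and MDH2. From 5 to 20 min 3 rose, ACS1, ADY2 and FBP1 (16.1%), and by edgeR 0 fell (14.8%), with 5 of the 10 at an unadjusted p under 0.05 in either direction. That count was 1 without replicate 1 at 20 min, and FBP1 was lost without it (adjusted p = 0.414) and without replicate 2 at 5 min (0.0781).

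**Figure D2:**
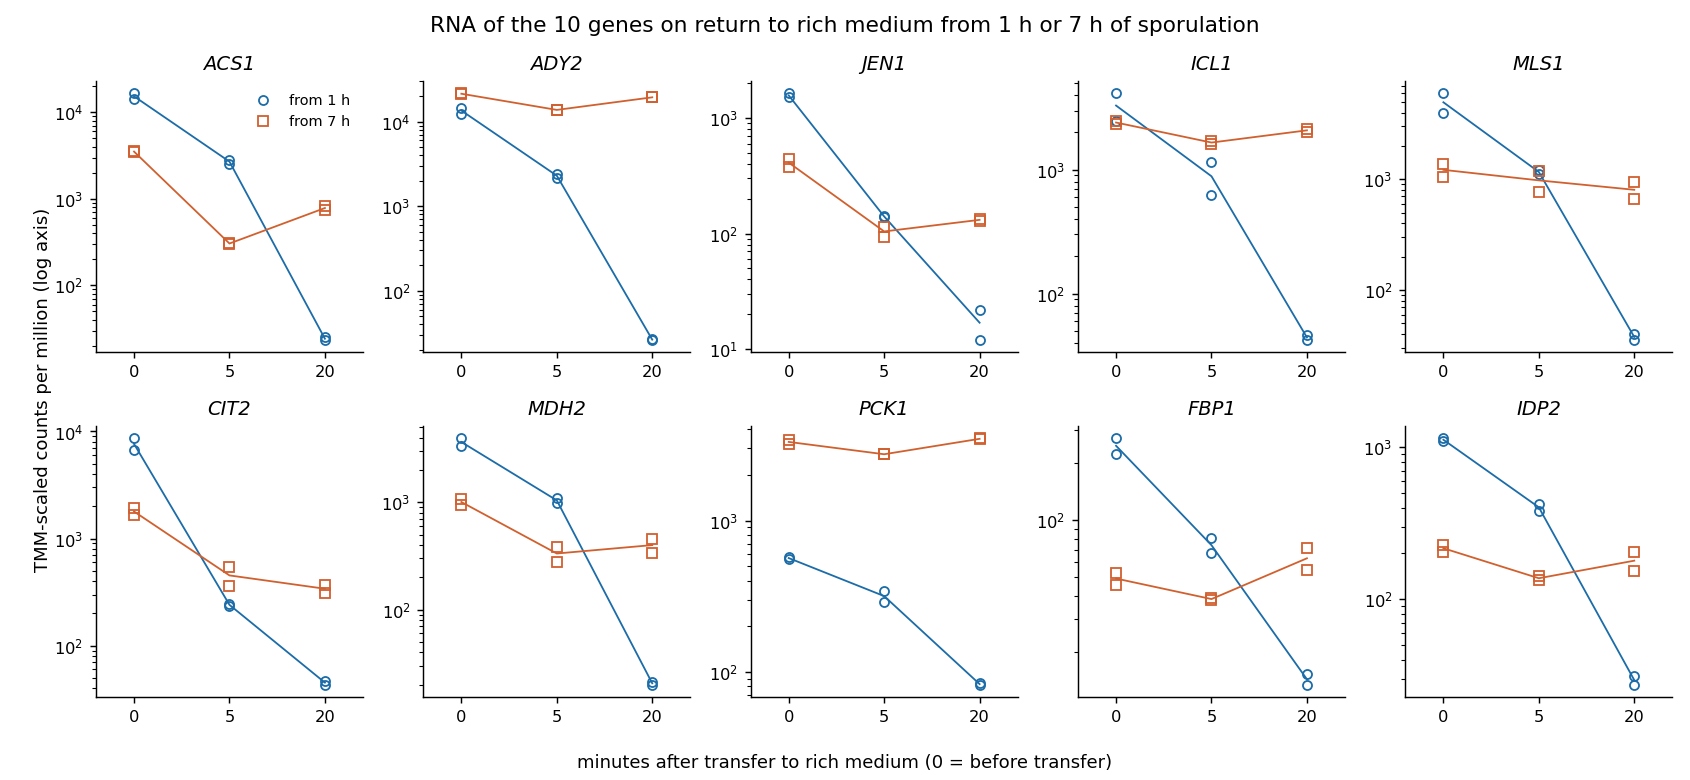
RNA level (TMM-scaled CPM, log axis) before transfer to YPD (0) and at 5 and 20 min, from 1 h in SPO (circles) or 7 h (squares). Points are libraries and lines join means of 2. From 1 h all 10 genes fall at each time, while from 7 h PCK1 stays between 2736 and 3503 CPM and ACS1 rises again after 5 min.

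The difference between the responses was tested as an interaction, the 7 h response minus the 1 h response. At 20 min the change from 7 h lay above that from 1 h in all 10 genes (32.5% of all genes had a positive difference and 28.4% a negative one), by 2.83 ± 0.24 log2 units for PCK1 up to 8.84 ± 0.31 for ADY2 (adjusted p = 1.01e-15 and 1.23e-30). At 5 min it lay above in 7 (24.7%), led by CIT2 (2.97 ± 0.26), and 1, ACS1, fell more (-1.07 ± 0.24, adjusted p = 0.000331; 15.7% of all genes). Without replicate 1 before transfer at 7 h 5 of these 8 calls were left, with ICL1 (adjusted p = 0.0556), IDP2 (0.0769) and FBP1 (0.0706) lost. The starting levels differed: before transfer 2 of the 10 were higher at 7 h than at 1 h (29.2% of all genes), PCK1 by 2.62 and ADY2 by 0.74 log2 units, and 7 were lower (32.8%). The ADY2 difference was lost with library sizes alone as scaling (log2 0.36, adjusted p = 0.0635). Responses and starting levels share the libraries before transfer.

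Most of the neighbouring enzymes fell on transfer from 1 h, while the regulators were split. Of the 20 enzymes 14 fell and 4 rose at 20 min from 1 h (42.8% and 38.4% of all genes), led by CIT3 (log2 -8.67), ICL2 (-7.95) and IDP3 (-6.86), while 10 fell and 2 rose from 7 h (11.3% and 17.9%), with MAE1 at 1.65 and ALD6 at 1.62. DAL7, the paralogue of MLS1, did not pass at 20 min from 1 h (log2 0.21). Of the 10 regulators 4 fell and 4 rose at 20 min from 1 h, near the shares of all genes, with a median of -0.02. SIP4 (log2 -7.64), CAT8 (-5.81) and ADR1 (-5.30), all activators, were the largest falls, while MIG1 rose by 1.82. From 7 h MIG2 (2.79), ERT1 (1.78) and MIG1 (1.58) rose, and CAT8 did not pass (-0.29). The GID complex is the ubiquitin ligase that marks gluconeogenic enzymes for degradation when glucose returns. At 20 min from 1 h, VID24, its glucose-induced substrate receptor gene, rose by 2.48 and the other 6 of the 7 fell, RMD5 by 6.25. From 7 h VID24 rose by 3.10 and 4 of the 7 fell.

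In poly(A) tags 9 of the 10 fell at 20 min from 1 h (28.2% of 5232 genes) and 0 rose (26.0%). The falls ran from 1.41 (PCK1) to 6.50 log2 units (ADY2), and FBP1 did not pass (log2 -1.05 ± 0.60). From 7 h 0 of the 10 rose (6.1% of all genes) and 1 fell at 20 min, JEN1 (1.47%; log2 -1.28 ± 0.36, adjusted p = 0.0218), and that call was lost without replicate 2 before transfer (0.191) or replicate 2 at 20 min (0.283). ACS1 set the 2 measures apart. At 7 h its tags stood at 42658 and 58436 CPM before transfer, 4222 and 5361 CPM at 5 min and 32305 and 44375 CPM at 20 min, so that the libraries at 20 min overlapped those before transfer. Its RNA at 20 min (832 and 733 CPM) lay below both RNA libraries before transfer (3530 and 3502 CPM). From 5 to 20 min the tags of 2 genes rose, ACS1 (log2 2.99 ± 0.35, adjusted p = 1.11e-07) and MDH2 (1.07 ± 0.34, 0.0346), with 3.54% of all genes rising; 0 fell (8.1%). The MDH2 call was lost when replicate 1 or 2 at 5 min or replicate 1 or 2 at 20 min was left out (adjusted p from 0.0640 to 0.210). In tags from 1 h 9 fell between 5 and 20 min (19.2%).

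**Figure D3:**
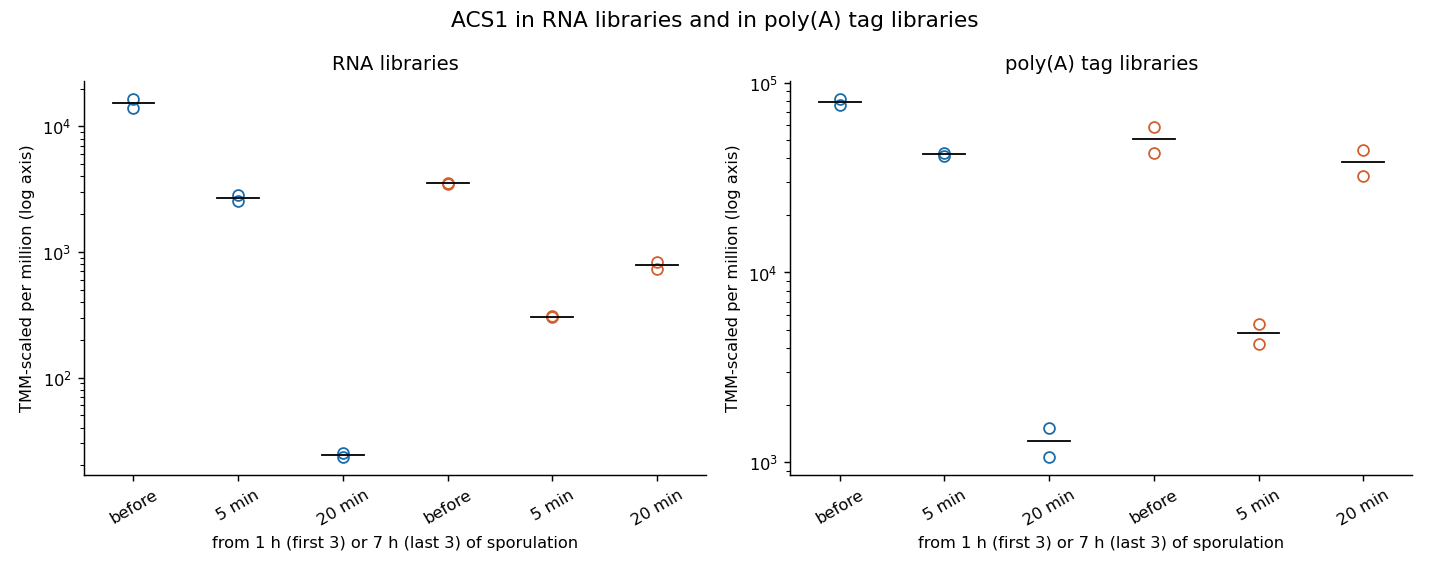
ACS1 level in RNA libraries (left) and poly(A) tag libraries (right) before transfer and at 5 and 20 min in YPD (TMM-scaled CPM, log axes), with 1 point per library and a bar at the mean of 2. From 7 h the tags return at 20 min to 32305 and 44375 CPM while RNA reaches 832 and 733 CPM.

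Poly(A) tails of some of these genes shortened on transfer from 1 h in SPO. A mean tail length was used where a gene had at least 20 tags in a library, which left out FBP1 in all replicated comparisons. JEN1 tails were 25.1 and 26.1 nt before transfer, 17.9 and 15.8 nt at 5 min and 11.5 and 12.8 nt at 20 min. ACS1 tails were 22.3 and 22.2, then 16.1 and 15.6, then 13.03 and 13.2 nt. CIT2 tails were 24.4 and 21.8, then 14.5 and 13.5, then 13.5 and 17.2 nt. In these 3 genes every library after transfer lay below both before it. MLS1 tails went from 24.2 and 24.3 nt to 18.3 and 15.9 nt and then 15.3 and 16.5 nt, and ICL1 tails from 19.6 and 18.1 nt to 15.8 and 14.4 nt and then 14.7 and 12.8 nt. PCK1 tails were 19.2 and 19.3, then 16.2 and 17.0, then 15.4 and 13.9 nt. IDP2 tails were 23.8 and 23.2, then 20.4 and 19.9, then 20.0 and 22.9 nt. MDH2 tails were 24.9 and 26.3, then 19.4 and 17.9 nt, and 12.6 nt in the 1 library measured at 20 min. In these genes too every measured library after transfer lay below both before it, an order whose share over all genes was not counted. ADY2 tails did not show this order, with 24.8 and 26.7 nt before, 20.5 and 18.5 nt at 5 min and 25.6 and 21.9 nt at 20 min.

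By limma 4 of 9 genes measured had shorter tails at 5 min from 1 h (2.79% of 2046 genes): CIT2 (-9.15 ± 1.70 nt, adjusted p = 0.000787), JEN1 (-8.73), MLS1 (-7.16) and ACS1 (-6.41 ± 1.14). JEN1 and MLS1 were lost, leaving 2, without replicate 1 before transfer (adjusted p = 0.0631 and 0.0707), replicate 2 before transfer (0.124 and 0.0798) or replicate 2 at 5 min (0.0959 and 0.1001). At 20 min 5 of 8 were shorter (5.81% of 1411 genes): JEN1 (-13.48 ± 2.28 nt, adjusted p = 0.000987), ACS1 (-9.14), MLS1 (-8.29), CIT2 (-7.75) and ICL1 (-5.15). MDH2 could not be measured in 1 library at 20 min. The median over the 8 was -6.45 nt, while over all genes it was 4.03 nt. The count at 20 min was 3 without replicate 1 before transfer, 2 without replicate 1 at 20 min and 8 when each library was centred on its median. Tails at 20 min are those of the tags that remained.

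From 7 h few tails passed the test. By limma 0 of the 9 genes passed at 5 min, with 2 at an unadjusted p under 0.05, and 0.0% of 2713 genes passed in either direction. At 20 min ACS1 alone passed (0.0391% of 2559 genes shorter), with tails of 18.9 and 18.3 nt before transfer and 12.8 and 12.9 nt at 20 min (-5.75 ± 1.06 nt, adjusted p = 0.0252). The ACS1 call was lost without replicate 1 (adjusted p = 0.107) or 2 (0.128) before transfer, without replicate 2 at 20 min (0.116) and after centring (-3.24 nt, 0.246). Its tags at 20 min were again near their level before transfer, while their tails were shorter in both libraries.

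**Figure D4:**
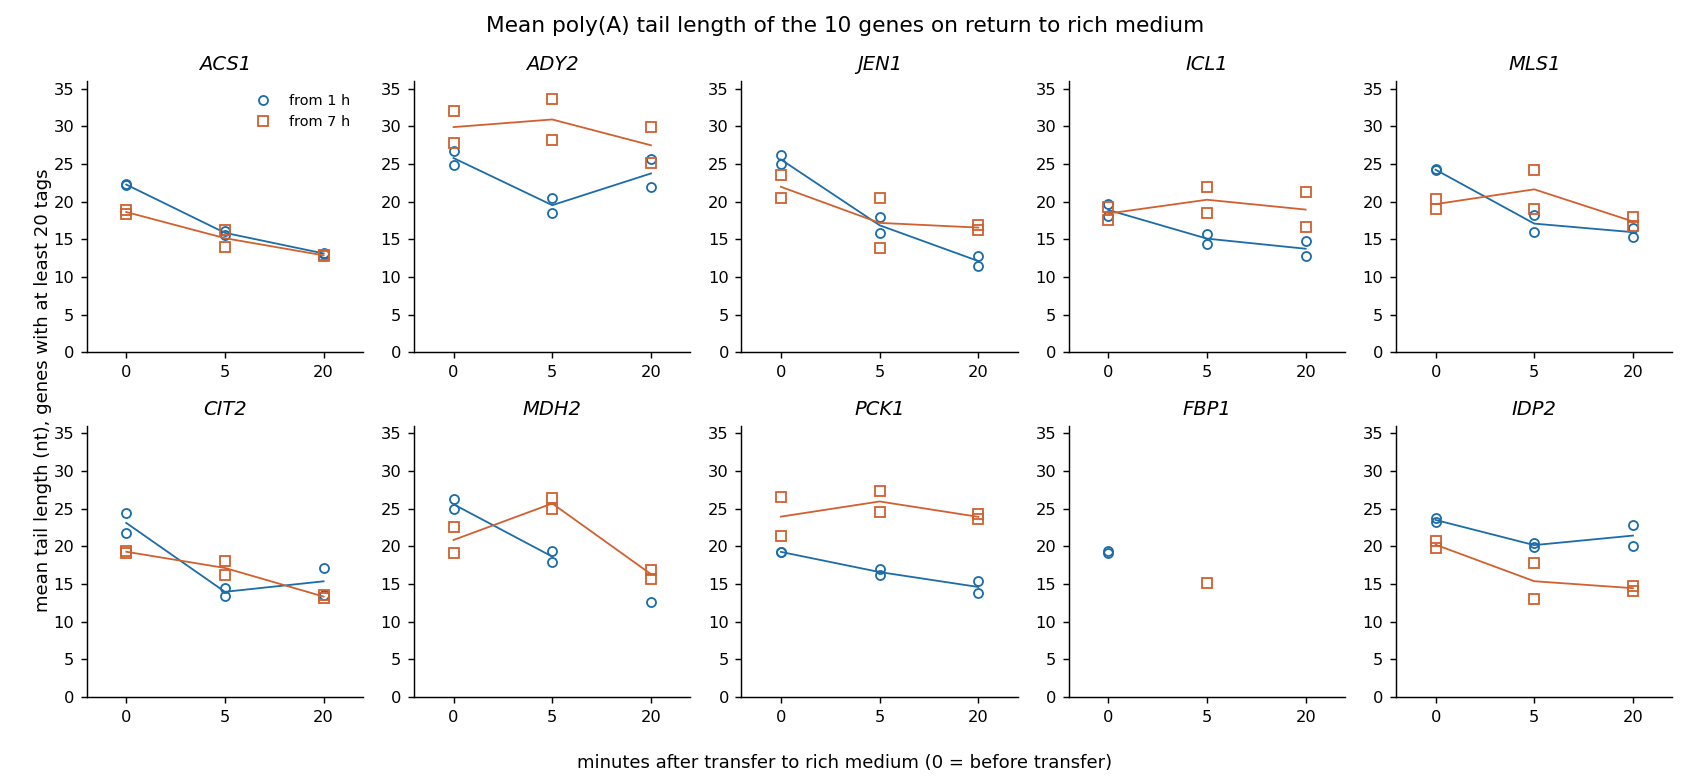
Mean poly(A) tail length (nt) of each gene before transfer to YPD (0) and at 5 and 20 min, from 1 h (circles) or 7 h in SPO (squares), for libraries with at least 20 tags of the gene. Lines join means of 2. JEN1 from 1 h goes from 25.1 and 26.1 nt to 11.5 and 12.8 nt, while PCK1 from 7 h lies between 21.4 and 27.4 nt.

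In the time course tails of these genes changed by a few nucleotides, as did those of the other genes. From 0 h to 1 h ACS1 tails went from 16.7 and 17.8 nt to 20.6 and 21.8 nt (3.95 ± 1.07 nt, limma adjusted p = 0.0344), and IDP2 tails from 16.6 and 17.2 nt to 22.6 and 24.7 nt (6.77 ± 2.09 nt, 0.0489). These were 2 of 9 measured genes with longer tails, with 10.8% of 530 genes longer and a median of 4.26 nt over all genes. After centring each library ACS1 reversed to -0.73 nt, and leaving out any 1 of the 4 libraries left 0 or 1 of the 2 calls, none of them without replicate 1 at 0 h, replicate 1 at 1 h or replicate 2 at 1 h, and 1 without replicate 2 at 0 h. From 0 h to 5 h 1 of 9 was longer, IDP2 (9.48% of 559 genes; 7.01 ± 2.11 nt), a call lost without replicate 1 or 2 at 0 h, replicate 1 or 2 at 5 h (adjusted p from 0.0764 to 0.331) and after centring (2.67 nt). By limma 0 of 9 passed from 1 h to 5 h and 0 of 9 from 5 h to 9 h, with 1 at an unadjusted p under 0.05 in each, against 0.156% and 13.2% of all genes shorter and, from 5 h to 9 h, 0.528% longer. These calls depend on the fit: with a replicate block, which is not the reported fit, 1 and 4 passed over these steps (35 of 642 and 233 of 568 genes). The block gave 6 from 0 h to 1 h (230 of 530 genes) and 7 from 0 h to 5 h (214 of 559). The median tail over a set of 244 genes was longer in replicate 2 than in replicate 1 at every hour.

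In the mutant experiment each group is 1 library, so differences have no replicate check and carry no p. In wild type all 10 genes were at least 2-fold higher after premeiotic growth than in vegetative growth (19.5% of 5211 genes), with 1.25 (MLS1) to 98.6 CPM (CIT2) in vegetative growth. ADY2, JEN1, MLS1, FBP1 and IDP2 had under 10 reads there and passed the filter through the premeiotic library. ACS1 went from 18.7 to 9601 CPM, ADY2 from 4.99 to 6259 CPM and PCK1 from 24.96 to 11707 CPM. The vegetative counts were small, 15, 4 and 20 reads, and the ratio for ADY2 was 1254 with a 95% exact interval of 489 to 4608, which covers counting error only. At 5 h in SPO 1 gene was past 2-fold above premeiotic growth, ADY2 (28.6% of 4941 genes), and 5 below (23.4%): JEN1, ICL1, PCK1, FBP1 and IDP2.

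In vegetative growth, where wild type has little of these RNAs, the strain without CCR4, the main deadenylase gene, and that without POP2, its partner in the Ccr4-Not complex, had more of them. ICL1 stood at 32.4 CPM in wild type, 240 CPM without CCR4, 382 CPM without POP2 and 69.1 CPM without XRN1, the main cytoplasmic 5' to 3' exonuclease gene. PCK1 stood at 24.96, 173, 250 and 235 CPM in the same order, and MDH2 at 18.7, 52.2, 150 and 29.8 CPM. ACS1 stood at 18.7, 90.7, 74.0 and 38.0 CPM. All 3 mutants lay above wild type for these 4 genes, though MDH2 without XRN1 lay within 2-fold of wild type and on few reads. JEN1 stood at 6.24, 33.7, 390 and 25.8 CPM, and in the strain without POP2 its ratio to wild type was 62.5 (interval 26.5 to 194). CIT2 passed 2-fold in none of the strains, at 98.6 CPM in wild type and 85.9, 139 and 50.2 CPM in the mutants.

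MLS1 stood at 1 read (1.25 CPM) in wild type and at 256 reads (206 CPM) without CCR4, 307 reads (334 CPM) without POP2 and 11 reads (14.9 CPM) without XRN1. Its ratio without CCR4 was 165, with an interval of 29.3 to 6530. FBP1 stood at 3.74, 66.6, 101 and 13.6 CPM and IDP2 at 8.74, 51.4, 201 and 25.8 CPM. ADY2 had 4 reads in wild type and 14, 12 and 5 in the mutants, too few for the filter of a mean of 10 reads. Of the genes over that filter 8 of 9 were past 2-fold higher without CCR4 (7.34% of 5530 genes), 8 of 9 without POP2 (9.74%) and 4 of 7 without XRN1 (10.3%), and 0 were lower in the 3 strains (2.15%, 7.46% and 10.4%). With a prior count of 5 the count without XRN1 was 2. JEN1, MLS1, FBP1 and IDP2 had under 10 reads in wild type and, where they passed the filter, did so through the mutant library, so these counts hold genes that had to differ. In poly(A) tags ICL1 was 11.8 times as high without CCR4 as in wild type and 14.5 times without POP2, and MLS1 18.1 and 20.5 times.

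After premeiotic growth some of the genes were higher in the mutants than in wild type and some lower, as among all genes. ADY2 stood at 6259 CPM in wild type and at 795, 1075 and 162 CPM without CCR4, POP2 and XRN1. ACS1 stood at 9601, 1938, 2679 and 402 CPM, and CIT2 at 4889, 3265, 2185 and 566 CPM. Wild type was the highest of the 4 for these genes. FBP1 went the other way, at 483 CPM in wild type and 2850, 2350 and 785 CPM in the mutants, and IDP2 stood at 929, 2812, 2239 and 898 CPM. ICL1, MLS1, MDH2 and PCK1 lay within 2-fold of wild type without CCR4 and without POP2, and JEN1 did too. Without CCR4 2 of the 10 were past 2-fold higher and 2 lower, near the shares of all genes (19.8% and 16.1% of 4966 genes). Without POP2 2 were higher, near the share of all genes, and 3 lower (19.5% and 15.4%). Without XRN1 0 were higher and 5 lower (20.3% and 14.6%). ACS1, ADY2 and CIT2 were lower without XRN1, as were JEN1 (4436 and 1657 CPM) and MDH2 (2469 and 1077 CPM). IME1, the gene that starts meiosis, stood at 3032 CPM in wild type and 534, 390 and 36.9 CPM in the mutants. Its part in these differences was not tested.

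At 5 h in SPO the stage markers differed between wild type and the mutants: SPS4 stood at 21657 CPM in wild type and at 6.70, 21.7 and 17.3 CPM in the mutants, and NDT80, the gene of the activator of middle sporulation, at 1520, 8.94, 6.19 and 34.6 CPM. The part of stage in what follows was not tested. ADY2 stood at 15896 CPM in wild type and at 1890, 2792 and 2178 CPM without CCR4, POP2 and XRN1, and ACS1 at 6747, 2507, 3370 and 2334 CPM. PCK1 stood at 2465, 1530, 1213 and 7196 CPM, so that the strain without XRN1 alone lay above wild type. FBP1 (44.4, 145, 180 and 160 CPM) and IDP2 (355, 981, 1000 and 851 CPM) were above wild type in all 3 mutants. Past 2-fold, 2 were higher and 3 lower without CCR4 (22.9% and 22.3% of 5346 genes), 2 and 3 without POP2 (20.0% and 21.9%) and 4 and 3 without XRN1 (18.8% and 22.9%).

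**Figure D5:**
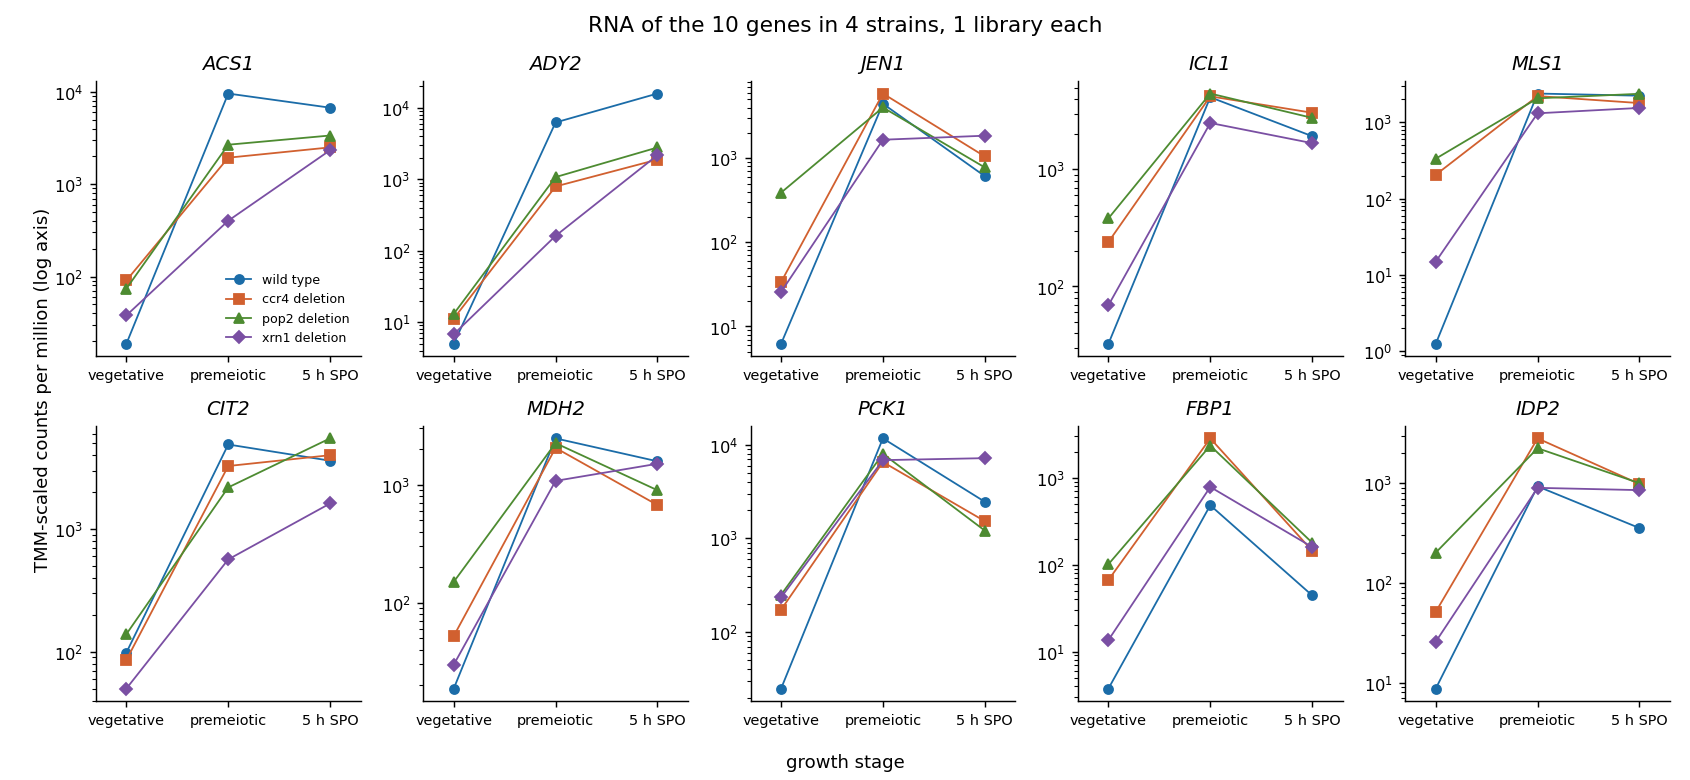
RNA level (TMM-scaled CPM, log axis) in wild type and in the 3 deletion strains, by stage (vegetative, premeiotic, 5 h in SPO), with 1 library per point. Wild type is lowest in vegetative growth for all of them but CIT2, and highest after premeiotic growth for ACS1, ADY2, MLS1, CIT2, MDH2 and PCK1. Several vegetative values rest on few reads, ADY2 among them, and these orders were not counted over all genes.

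Tails were shorter without XRN1 for most of these genes, as for most genes. In vegetative growth CIT2 tails were 39.6 nt in wild type and 18.8 nt without XRN1, and after premeiotic growth ICL1 tails were 36.7 and 17.9 nt. ADY2 and PCK1 went against the rest after premeiotic growth, with 43.0 and 18.7 nt in wild type and 48.9 and 20.5 nt without XRN1. Past 10 nt, 6 of 9 genes were shorter in vegetative growth (75.5% of 5096 genes), 6 of 10 after premeiotic growth (74.0% of 5019) and 8 of 9 at 5 h (90.9% of 5111). The medians over all genes were -14.7, -13.5 and -17.6 nt, and after centring each library on its own median 14 of these 20 differences changed sign. Then ADY2 and PCK1 in vegetative and premeiotic cells and ACS1 at 5 h were past 10 nt longer, and none was past 10 nt shorter. Without CCR4 2 of 9 were longer in vegetative growth (65.1% of 4982 genes), 6 of 10 after premeiotic growth (41.7%) and 0 of 9 at 5 h (7.79%), where PCK1 was shorter, at 22.3 nt against 32.4 nt (4.66%). Without POP2 3 of 9 (9.98%), 4 of 10 (28.0%) and 0 of 9 (6.43%) were longer, and PCK1 was among them in vegetative growth (22.7 nt in wild type and 39.4 nt) and after premeiotic growth (18.7 and 31.3 nt). ADY2, ACS1 and CIT2, the 3 genes past 2-fold lower in RNA without POP2 after premeiotic growth, had tails there of 43.0, 39.3 and 31.6 nt in wild type, 59.0, 52.6 and 46.7 nt without CCR4 and 58.8, 55.5 and 47.3 nt without POP2. MLS1 and MDH2, like PCK1 lower in RNA by less than 2-fold, had tails of 31.9 and 38.0 nt in wild type, 33.5 and 42.9 nt without CCR4 and 29.4 and 37.7 nt without POP2. PCK1 tails were 18.7, 35.4 and 31.3 nt in the same order, JEN1 tails 32.8, 43.6 and 42.4 nt and ICL1 tails 36.7, 38.5 and 33.7 nt. IDP2 and FBP1, higher in RNA in both strains, had tails of 24.8, 36.3 and 32.2 nt and of 20.1, 23.4 and 29.7 nt. The median difference over all genes was 8.71 nt without CCR4 and 5.65 nt without POP2. A relation between tail and RNA was not tested.

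The libraries fragmented before ligation gave a further measure of RNA, with 1 library of wild type in vegetative growth, 1 of wild type at 5 h and 1 of the strain without XRN1 in vegetative growth. ADY2 had 0 counts in vegetative wild type and 10975 CPM at 5 h, which is at least 1810-fold higher than the level of 3 counts in the vegetative library. All 10 were past 2-fold higher at 5 h (40.6% of 5270 genes), but all except ICL1, CIT2 and PCK1 had 5 counts or fewer in vegetative wild type and entered through the library at 5 h. Without XRN1 all 9 over the filter were past 2-fold higher than wild type in vegetative growth, but so were 47.7% of 4724 genes, and the 6 with 5 counts or fewer in wild type passed the filter through the mutant library. Levels in these libraries are scaled by library total alone and not by TMM. The median over the 4724 genes was 0.94 log2 units higher without XRN1 than in wild type. JEN1 stood at 8.09 CPM in wild type and 150 CPM without XRN1 (ratio 18.5), and CIT2 at 86.9 and 193 CPM (ratio 2.23). In the libraries ligated first, which are scaled by TMM, CIT2 was lower without XRN1. The part of scaling in this difference was not tested.

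The Xrn1 degron and the induction of CCR4 were sampled in vegetative YPD, where the 10 genes had few reads, and no test was run. Auxin, copper and time changed together in the degron strain, and copper and time in the CCR4 strain. Their parts cannot be told apart from those of Xrn1 loss or Ccr4 induction. The XRN1 RNA does not check the degron, which acts on the protein. Between 0 and 30 min PCK1 went from 47.3 to 7.32 CPM, MDH2 from 83.5 to 15.6 CPM and MLS1 from 26.8 to 7.88 CPM, and these 3 of 9 genes were past 2-fold lower (4.99% of 5917 genes). FBP1 alone was past 2-fold higher (5 and 67 reads; 10.3%), having passed the filter through the library at 30 min. The control stood at 2.52, 4.21 and 4.21 CPM for PCK1, MDH2 and MLS1, and 5 of 7 genes were past 2-fold higher in the degron strain at 0 min than in it (2.91% of 5328 genes). The control held 3 reads of PCK1 and 5 each of MDH2 and MLS1, so these 3 passed the filter through the degron library, where they are high. The library at 0 min lay above both others for PCK1, MDH2 and MLS1. Tails of CIT2 went from 41.0 to 21.6 nt and those of IDP2 from 36.2 to 23.8 nt, the 2 of 7 genes past 10 nt shorter (61.0% of 4747 genes). Tails of MDH2 went from 36.5 to 31.5 nt. Those of ICL1 (23.5 to 29.2 nt), MLS1 (21.9 to 28.3 nt), PCK1 (22.7 to 27.6 nt) and ACS1 (30.5 to 32.3 nt) were longer at 30 min, where MLS1 had 35 tags and PCK1 25. The median over the 7 was 1.77 nt, against -11.7 nt over all genes.

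CCR4 RNA stood at 105 CPM before and 490 CPM after 60 min of copper, with 141 CPM in the control. PCK1 went from 15.3 to 2.78 CPM (27 and 5 reads) and was the 1 of 6 genes past 2-fold lower (3.81% of 5592 genes), while CIT2 stood at 69.8 and 92.3 CPM and ICL1 at 23.8 and 26.1 CPM. None of the 6 was past 2-fold higher (1.20%). At 0 min 1 of 7, IDP2, was past 2-fold above the control (0.412% of 5580 genes), with 23 and 10 reads. ACS1 tails were 21.3 nt at 0 min (24 tags), 28.2 nt at 60 min (40 tags) and 29.3 nt in the control (25 tags). CIT2 tails were 18.5 nt at 0 min, 19.5 nt at 60 min and 22.7 nt in the control. Between 0 and 60 min 0 of these 2 genes were past 10 nt longer (0.039% of 2561 genes) or shorter (6.33%), and the median over all genes was -4.92 nt.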

How the data were processed

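Per the labels' protocols, RNA libraries were ligated to a 3' adapter, depleted of ribosomal RNA and then fragmented; tag libraries were poly(A)-selected, fragmented and ligated. The authors deposited raw counts per gene, tag counts per gene, and the mean tail length in nucleotides, handled as a score per gene and library. Per the submitters' processing notes, the tools were STAR 2.5.3a, bedtools 2.26.0 and edgeR and the build sacCer3; how reads were assigned to genes and strands, tails called and molecular identifiers treated is not stated in the labels.

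Counts were tested with edgeR 4.0.16 (quasi-likelihood, TMM, robust, Benjamini-Hochberg over all genes kept, adjusted p under 0.05), 1 fit per experiment, and tails with limma 3.58.1 on values from at least 20 tags. Single libraries were compared as log2 CPM differences (prior count 2, mean of at least 10 counts, past 2-fold) or tail differences past 10 nt; exact 95% ratio intervals cover counting error only. The tests were checked on simulated data. DESeq2 1.42.0, other scalings, filters, thresholds, left-out libraries and a replicate block were alternatives. Members, lists and naming rules (3 list genes of largest change) were chosen with earlier results of these data known. The comparison of 20 with 5 min was added after its values were seen. Same-numbered replicates were not treated as pairs. The table of 3' bias was not used here.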

Additional observations from a re-analysis of the deposited data

Results flagged for a closer look

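The response to rich medium differed between cells taken from 1 h and from 7 h in SPO, by the interaction test in edgeR (7 h response minus 1 h response, log2, adjusted p under 0.05), and each such gene is given here with no explanation. At 20 min the difference was 8.84 for ADY2, 7.12 for ACS1, 6.50 for MLS1, 6.16 for MDH2, 5.99 for ICL1, 5.04 for CIT2, 5.01 for IDP2, 4.76 for JEN1, 4.47 for FBP1 and 2.83 for PCK1, so that in all 10 the change from 7 h lay above that from 1 h. At 5 min it was 2.97 for CIT2, 1.88 for ADY2, 1.76 for MLS1, 1.41 for JEN1, 1.32 for ICL1, 1.27 for FBP1 and 0.74 for IDP2, and -1.07 for ACS1, the gene that fell more from 7 h. Groups of 2 libraries are too small to test a single library against the others.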

How the results depend on the processing

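None of the RNA changes that passed the test reversed under the alternatives run, and of 3000 recomputed values of single genes 78 reversed, 97 lost a call and 62 gained one. The cause of each was not tested.

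Counts of these genes past the threshold that moved were as follows. In RNA from 5 to 20 min at 7 h the count was 5 with RLE size factors and 1 to 3 without 1 library; the 5 min difference gave 5 to 9 without 1 library. In tags, 9 h against 5 h gave 2 with library sizes only and 1 to 3 without 1 library; 1 h against 0 h gave 4 to 7, 5 h against 1 h 3 to 5, 20 min at 7 h 0 to 1, and 20 against 5 min at 7 h 1, each without 1 library. In tails, 1 h against 0 h gave 0 with 10 tags, after centring or on the log2 scale, 4 with 50 tags, and 0 to 1 without 1 library. Tails at 5 h against 0 h gave 0 with 10 tags, 3 with 50 tags and 0 without 1 library, and at 9 h against 5 h 1 after centring. On transfer from 1 h, tails gave 7 after centring and 2 to 4 without 1 library at 5 min, and 8 and 2 to 5 at 20 min. From 7 h they gave 1 on the log2 scale at 5 min, and 0 after centring, 2 on the log2 scale and 0 to 1 without 1 library at 20 min.

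With a replicate block the tail counts were 6 at 1 h against 0 h, 1 at 5 h against 1 h, 4 at 9 h against 5 h, 7 at 5 h against 0 h and 0 at 20 min from 7 h; other counts stayed within 1.5 times. The deviations of same-numbered libraries, gene by gene, correlated at -0.154 to 0.249 between groups of 2 libraries. This correlation does not measure an offset shared by all genes. Such an offset is seen in the time course, where the median tail was longer in replicate 2 at every hour. The tail counts of the time course thus depend on the choice of fit. The labels name no shared batch, and the block was kept as an alternative and not as the reported fit. With the numbers crossed at 5 min from 7 h, where the correlation was -0.154, 0 tails passed, as without the block; this setting was chosen after seeing the data.

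Between single libraries, a 5 nt threshold for tails gave 4 without CCR4 in vegetative growth and 4 at 5 h, 7 after premeiotic growth and 2 at 5 h without POP2, 6 for wild type premeiotic against vegetative, 5 for 5 h against premeiotic, 5 for the degron at 30 min and 2 at 0 min, and 1 for each Ccr4 induction comparison. Centring gave 0 without CCR4 after premeiotic growth, 1 without POP2 in vegetative growth, 2, 2 and 1 without XRN1, 2 for each wild-type comparison, 4 for the degron at 30 min and 1 for Ccr4 at 60 min; 50 tags gave 1 for the degron at 30 min. In RNA a 1.5-fold threshold gave 8 without CCR4 at 5 h, 7 and 9 without XRN1 in vegetative and premeiotic cells and 2 for Ccr4 at 0 min. A prior count of 5 gave 2 without XRN1 in vegetative growth and 0 for Ccr4 at 0 min, and library sizes only gave 2 for Ccr4 at 60 min.

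Of tail differences past 10 nt without XRN1, these reversed on centring: in vegetative growth ACS1 2.74, JEN1 2.56, MLS1 0.49 and MDH2 4.58 nt; after premeiotic growth JEN1 0.46 and FBP1 2.08 nt; at 5 h ADY2 1.24, JEN1 0.56, ICL1 2.45, MLS1 7.12, CIT2 4.85, MDH2 6.17, PCK1 3.37 and IDP2 2.64 nt. Smaller differences turned positive too: ADY2 10.9, ICL1 8.40 and PCK1 12.5 nt in vegetative growth, ACS1 3.82 and IDP2 5.33 nt after premeiotic growth and ACS1 14.9 nt at 5 h. Centring also reversed 1 h against 0 h for ACS1 (-0.73), ADY2 (-2.07), JEN1 (-2.18) and PCK1 (-0.17), 5 h against 1 h for ICL1 (0.28), and 9 h against 5 h for ACS1 (2.48), ADY2 (1.77), ICL1 (4.08), JEN1 (2.60), PCK1 (2.96), MLS1 (0.35) and MDH2 (0.52). It reversed 5 h against 0 h for ACS1 (-3.81, limma adjusted p = 0.0211), ADY2 (-0.72), JEN1 (-1.59) and MDH2 (-0.67), and 20 min from 7 h for ADY2 (0.0942), PCK1 (2.48) and MLS1 (0.21). On the log2 scale ICL1 at 9 h against 5 h was 0.000241 and PCK1 at 20 min from 7 h 0.00647. The RNA difference of MDH2 at 5 min was -0.13 with RLE and with DESeq2.

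Ranges without 1 library that crossed 0, all of changes that had not passed the test, were, for RNA (log2), ADY2 at 9 h against 5 h -0.28 to 0.0388, PCK1 at 20 min from 7 h -0.00686 to 0.13, MLS1 from 5 to 20 min at 7 h -0.55 to 0.0913, ICL1 at 7 h against 1 h -0.70 to 0.0475 and the MDH2 5 min difference -0.0648 to 0.40. For tags they were MDH2 at 5 h against 1 h -0.41 to 0.19, IDP2 and FBP1 at 9 h against 5 h -0.50 to 0.0231 and -0.51 to 1.76, PCK1 and FBP1 at 20 min from 7 h -0.0507 to 0.25 and -0.14 to 1.23, FBP1 from 5 to 20 min at 1 h -0.36 to 0.11, and ICL1 and MLS1 from 5 to 20 min at 7 h -0.42 to 0.78 and -0.0526 to 0.52. For tails (nt) they were ADY2 at 1 h against 0 h -0.22 to 5.44; at 5 h against 1 h CIT2 -2.70 to 1.68, ADY2 -0.27 to 2.31, ICL1 -1.73 to 1.52, JEN1 -1.41 to 1.93 and IDP2 -1.25 to 1.75; at 9 h against 5 h ICL1 -1.67 to 1.57, JEN1 -3.16 to 0.0851 and PCK1 -2.61 to 0.25; ACS1 at 5 h against 0 h -0.21 to 1.28. From 7 h they were ADY2 -1.76 to 3.78, PCK1 -0.56 to 4.58 and MLS1 -0.65 to 4.58 at 5 min, and ICL1 -1.82 to 2.87 and PCK1 -2.60 to 2.54 at 20 min. Depth limits FBP1 in tags and tails and most of these genes in vegetative growth.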

Other observations

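Summed over the 10 genes, RNA counts made up 3.56% and 3.32% of the 2 libraries at 0 h in SPO, 6.66% and 7.01% at 1 h and 2.46% and 2.80% at 9 h. On return to YPD from 1 h the share was 6.74% and 5.59% before transfer, 1.19% and 1.13% at 5 min and 0.0253% and 0.0255% at 20 min. From 7 h it was 3.32% and 3.51%, then 2.08% and 2.02%, then 2.63% and 2.54%. These shares are of counted reads and were not tested. They sum genes whose levels are not compared here. From 7 h ADY2 held most of the summed counts, with means of 21434.9 CPM before transfer, 13800.5 CPM at 5 min and 19445.6 CPM at 20 min.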
